A study of Homo sapiens with 12 samples.

Results

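The axon guidance ligands and receptors comprised 68 of the 23284 genes listed in the deposited expression tables. They were selected by matching gene symbols and include the ephrins and their Eph receptors, the semaphorins of classes 3 to 7 with the plexins and neuropilins, the slits and ROBO receptors, and the netrins with the UNC5 receptors. RNA was sequenced in 12 libraries of PANC-1, a human pancreatic cancer cell line, and the levels are given as FPKM, fragments of each gene relative to its exon length and to all mapped reads of the library. All cells carried a retroviral reporter in which the green fluorescent protein ZsGreen is fused to the degron of ornithine decarboxylase, and were kept under G418 selection. Cells with low proteasome activity do not degrade this protein and become fluorescent.

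Degron (−) cells are the infected line without sorting, in which few cells are fluorescent. By the study's account, degron (++) cells are the brightest part of a population obtained from that line by repeated sorting and culture. Both populations would then descend from 1 infected line, which was not tested here. Each population had 2 libraries without irradiation collected at 48 h (0 Gy), 2 at 30 h with 4 Gy and 2 at 48 h with 4 Gy. The time point from which these hours run is not stated in the labels. The labels also conflict for the 6 libraries taken here as degron (−), which are ZsGreen– in their titles and d+ in their descriptions. No source says whether the libraries of a group came from separate cultures, so the p-values below measure only the spread between these libraries.

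Axon guidance molecules are short-range or secreted cues that steer growing axons by attraction and repulsion, and the same molecules act in epithelia, vessels and tumours. Ephrins are bound to the membrane and signal through Eph receptor tyrosine kinases at cell contacts, in both directions. Class 3 semaphorins are secreted and act through complexes of neuropilins and plexins, while the membrane-bound semaphorins bind plexins directly. Slits are secreted ligands of ROBO receptors, and netrins act through DCC, neogenin and the UNC5 receptors. Changes in several of these genes are known in pancreatic cancer.

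Levels were tested with limma on log2(FPKM + 1) in 12946 genes with at least 1 FPKM in at least 2 libraries, and a gene was called at a Benjamini-Hochberg adjusted p under 0.05 over all of them. A log2 fold change on this scale understates the change of genes with low FPKM. Of the 68 members, 43 passed the filter and were tested, and 25 were not. Of the 43 tested members, 12 (27.9%) met the filter in 1 population only, 7 in degron (++) and 5 in degron (−), so they passed it through the population in which they were higher. Of all tested genes, 13.1% did. The 7 members were EPHA4, SEMA3D, SEMA4A, SEMA5A, SEMA6D, SLIT2 and UNC5A, and the 5 were PLXNB3, ROBO3, SEMA4F, SEMA4G and SLIT3. Their calls and their separation between the populations are therefore not independent of the filter. The FPKM carry no counts, so the depth of the libraries is not known and no counting interval is given. In bulk samples, fewer cells of a type and less RNA per cell cannot be told apart.

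The epithelial markers KRT8, KRT18, KRT19, EPCAM and CDH1 were all at 1 FPKM or more in all 12 libraries. Markers of Schwann cells summed to at most 0.373 FPKM in any library, those of endothelium to at most 0.556 and those of leukocytes to at most 1.97. Of 7 neuron markers, STMN2 and ELAVL4 were listed at 0 in all 12 libraries, while TUBB3, MAP2 and SYT1 were at 1 FPKM or more in every degron (−) library, and of the list TUBB3 alone reached 1 FPKM in every degron (++) library. The summed neuron list ranged from 64.4 to 82.8 FPKM in degron (++) libraries and from 173 to 194 FPKM in degron (−) libraries, mostly TUBB3. The 5 fibroblast markers summed to 14.4 to 25.4 FPKM in degron (++) and 37.1 to 53.9 FPKM in degron (−) libraries, mostly LUM in the first and COL1A1 in the second, and DCN was listed at 0 in all 12. Of the 4 mesenchymal markers, VIM was at 13.2 to 19.2 FPKM in degron (++) and at 2376 to 2711 FPKM in degron (−) libraries, and ZEB1 at 0.03 to 0.067 and 7.84 to 9.84 FPKM. The other 2 went the opposite way, with CDH2 at 41.2 to 45.0 and 4.74 to 9.68 FPKM and FN1 at 12.5 to 18.2 and 1.20 to 2.56 FPKM. The list summed to 69.9 to 81.2 FPKM in degron (++) libraries, against 2397 to 2727 FPKM in degron (−), and almost all of the latter was VIM. At 0 Gy EPCAM and CDH1 were also called higher in degron (++) (log2 fold changes 2.21 and 2.85). The part of these markers in the differences between the populations was not tested.

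The clearest exchange was between the slits. SLIT2 and SLIT3 are secreted proteins that bind the same ROBO receptors. SLIT2 was at 3.97 and 3.83 FPKM in the degron (++) libraries at 0 Gy, against 0.434 and 0.486 FPKM in the degron (−) libraries. SLIT3 was listed at 0 and 0.016 FPKM in degron (++) and was at 15.4 and 15.3 FPKM in degron (−). Over all conditions SLIT2 ran from 3.83 to 4.67 FPKM in degron (++) and from 0.316 to 0.678 FPKM in degron (−). SLIT3 ran from 0 to 0.056 and from 14.2 to 16.2 FPKM. Neither gene's groups overlapped, nor did those of 71.3% of all tested genes. Each of these slits met the filter only in the population in which it was higher, so its call and separation are not independent of the filter. The log2 fold change at 0 Gy was 1.75 (SE 0.0716, adjusted p 3.94e-08) for SLIT2 and −4.02 (SE 0.0558, adjusted p 7e-11) for SLIT3, the largest in size among the 43 tested members. SLIT2 thus made up a median of 99.3% of the summed slit FPKM in degron (++) libraries, and SLIT3 96.6% in degron (−) libraries. SLIT1 stayed below 1 FPKM in all 12 libraries.

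Because these 2 genes code for ligands of the same receptors and were high in opposite populations, the 250 bases before the transcription start of each are shown, 5′ to 3′ on the strand of the gene, with GC boxes (GGGCGG or CCGCCC) in capitals. They were taken from the RefSeq promoter table of GRCh38.p14, SLIT2 from chr4:20251655-20251904 on the plus strand and SLIT3 from chr5:169301140-169301389 on the minus strand.
SLIT2: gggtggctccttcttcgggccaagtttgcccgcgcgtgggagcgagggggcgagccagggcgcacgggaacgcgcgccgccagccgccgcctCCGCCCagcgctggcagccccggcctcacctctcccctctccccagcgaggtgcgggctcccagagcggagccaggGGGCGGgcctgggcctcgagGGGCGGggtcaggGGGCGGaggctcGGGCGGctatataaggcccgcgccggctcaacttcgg
SLIT3: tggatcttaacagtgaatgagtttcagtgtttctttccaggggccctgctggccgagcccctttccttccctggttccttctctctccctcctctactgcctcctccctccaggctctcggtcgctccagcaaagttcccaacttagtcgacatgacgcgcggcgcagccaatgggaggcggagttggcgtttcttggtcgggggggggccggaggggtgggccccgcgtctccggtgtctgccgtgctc
The SLIT2 window held 5 GC boxes and 30 CpG dinucleotides at 77.2% G and C, and the SLIT3 window held 0 GC boxes and 16 CpG at 62.8%. A GC box was present in 42.6% of all 35116 windows in the table. Neither window held the letters CACCTG or CAGGTG (an E2-box), TGANTCA (an AP-1 site) or TATAAA or its reverse complement, searched on both strands. These are matches of letters in these windows and show no binding.

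**Figure D1:**
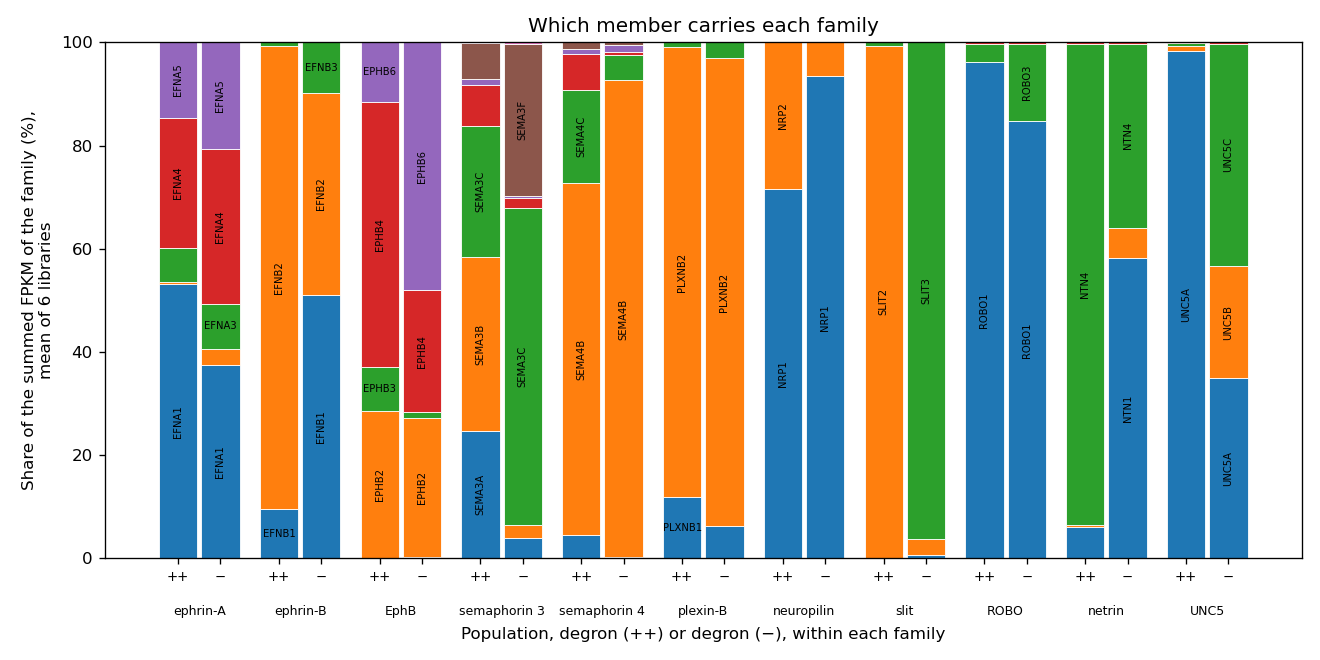
Share of each family's summed FPKM (y axis, percent, mean of the 6 libraries of a population) taken by each member, as stacked bars for degron (++) (left) and degron (−) (right) in 11 families along the x axis. The slit bars change from SLIT2 (median 99.3%) to SLIT3 (median 96.6%), while PLXNB2 led the plexin-B bars in both populations.

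In the comparison of degron (++) with degron (−) cells at 0 Gy, 42 of the 43 tested members were called, 23 higher and 19 lower in degron (++). Of all tested genes, 77.7% were called in the same comparison, 37.6% higher and 40.2% lower, so a call by itself says little about these genes. The differences were larger in the members, with a median absolute log2 fold change of 1.22 for the members and 0.51 over all tested genes. A call with a log2 fold change of at least 1 in size was made for 26 members (60.5%), against 24.2% of all tested genes, and one of at least 2 in size for 7 members (16.3%), against 7.05%. The median signed log2 fold change was 0.69 for the members and −0.02 for all tested genes. Among the 31 members that met the filter in both populations the counts were 17 (54.8%, against 19.2% of all such genes) and 5 (16.1%, against 4.58%), a restriction added after the data were seen. Since the genes were chosen with results of these data known, these shares are a description and no independent evidence. The 7 members were SLIT3, EPHB6, SEMA4B and SEMA3F, which were lower, and SEMA3B, UNC5A and NTN4, which were higher.

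The same comparison at 4 Gy gave 24 members higher and 19 lower at 30 h (43 of 43 called, background 79.1%, with 38.3% higher and 40.8% lower), and 22 higher and 19 lower at 48 h (41 of 43 called, background 76.7%, with 37.1% higher and 39.6% lower). Over the 3 comparisons 41 members were called each time with 1 sign, as were 68.5% of all tested genes. For 23 members every degron (++) library lay above every degron (−) library and for 19 every one lay below, and EPHB4 was the only tested member with overlap. Among all tested genes, 71.3% did not overlap, 34.1% above and 37.2% below. This share stands beside every statement below that the populations did not overlap. For the members that met the filter in 1 population only, such a separation is tied to the filter. By role, 16 of the 25 tested ligands were higher in degron (++) at 0 Gy and 9 were lower, and 7 of the 18 tested receptors were higher and 10 were lower, beside 37.6% higher and 40.2% lower among all tested genes. The difference between the roles was not tested.

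**Figure D2:**
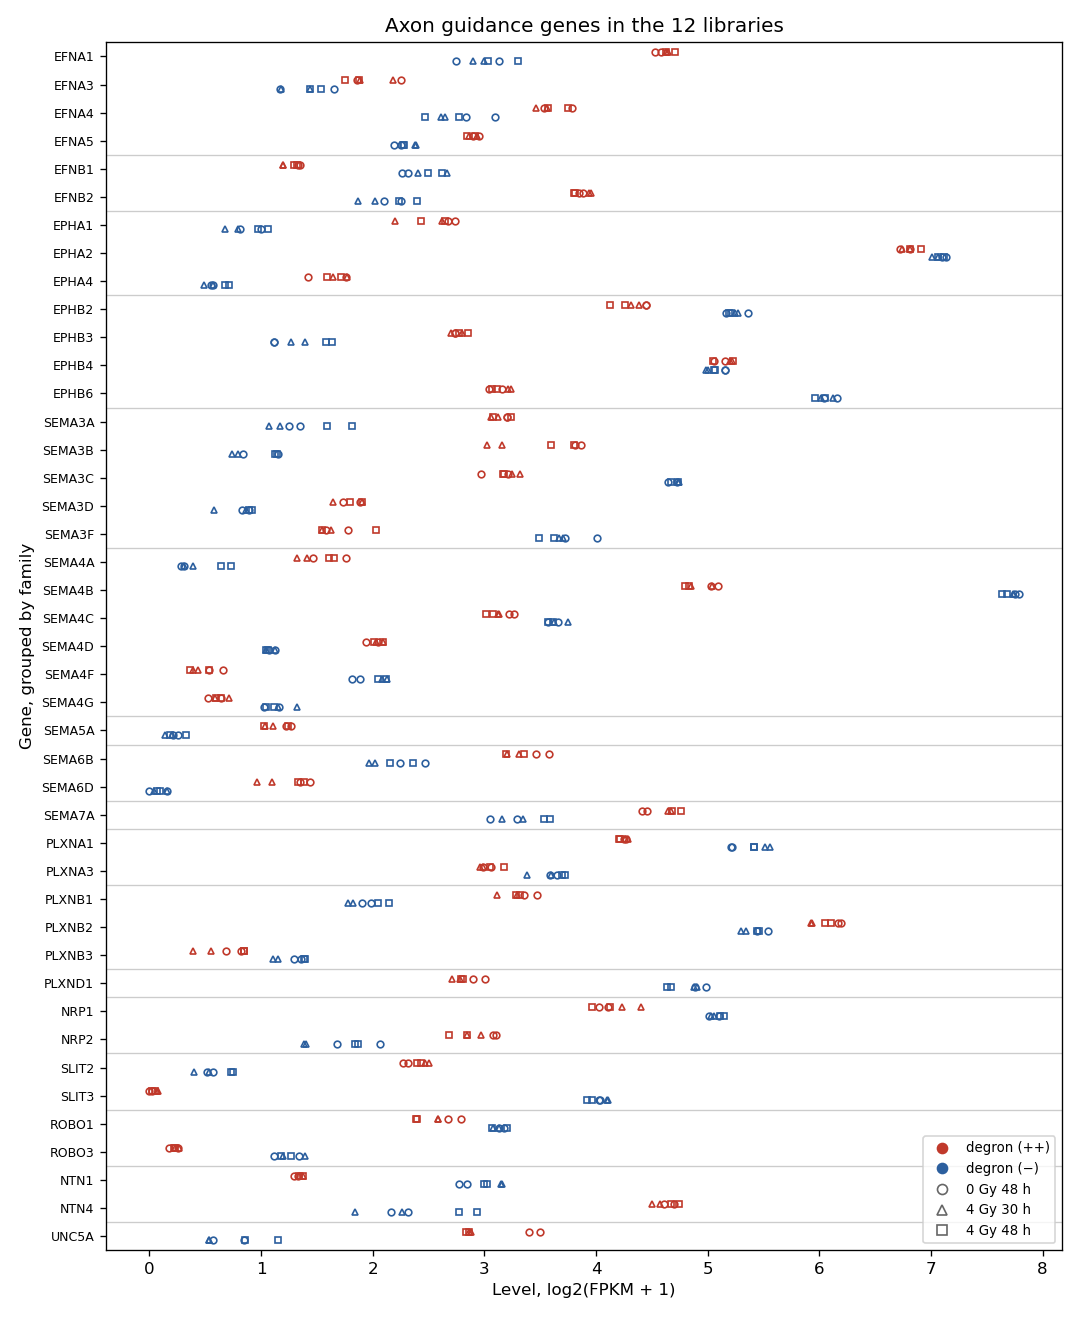
Level of each of the 43 tested members (rows, grouped by family) as log2(FPKM + 1) on the x axis, with 1 point for each of the 12 libraries, coloured by population (red degron (++), blue degron (−)) and shaped by condition. The populations do not overlap in 42 of the 43 tested members, with EPHB4 the exception, nor in 71.3% of all tested genes. Of the 43 members, 12 met the filter in 1 population only.

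All 4 tested ephrin-A ligands were called higher in degron (++) cells at 0 Gy. The fifth, EFNA2, was not tested and was below 1 FPKM in every library, at 0.087 to 0.305 FPKM in degron (++) and 0.425 to 0.774 FPKM in degron (−). EFNA1, the ligand for which EPHA2 is the best known receptor, was at 23.0 and 22.0 FPKM in degron (++) and at 7.76 and 5.72 FPKM in degron (−) libraries at 0 Gy, with a log2 fold change of 1.61 (SE 0.123, adjusted p 2.28e-06). EFNA4 was at 10.6 and 12.8 FPKM against 7.54 and 6.16 FPKM, a log2 fold change of 0.69 (SE 0.129, adjusted p 0.000914). EFNA1 was 3.34-fold and EFNA4 1.71-fold higher by mean FPKM, and their groups did not overlap. EFNA5 differed by 0.71 and EFNA3 by 0.64 on the log2 scale. EFNA3 was the least certain of the 4. Its log2 fold change was 0.40 without degron (−) 0 Gy 48 h replicate 2 (adjusted p 0.0959) and 0.45 without degron (++) 0 Gy 48 h replicate 2 (adjusted p 0.0932), and at 4 Gy and 48 h it was 0.33 (95% interval −0.10 to 0.76, adjusted p 0.144). EFNA4, EFNA3 and EFNA1 follow each other on chromosome 1 with 0 protein-coding genes between EFNA4 and EFNA3 and 0 between EFNA3 and EFNA1, and RefSeq lists a read-through transcript of EFNA4 and EFNA3, so their reads may be shared. The summed ephrin-A FPKM ranged from 43.0 to 45.5 in degron (++) libraries and from 17.1 to 21.6 in degron (−) libraries.

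Their main receptor had the opposite direction. EPHA2, an Eph kinase abundant in many epithelial cancers, was the most abundant receptor of the list in both populations. It was at 104.3 and 111 FPKM in degron (++) and at 136 and 139.7 FPKM in degron (−) libraries at 0 Gy, a log2 fold change of −0.35 (SE 0.0488, adjusted p 0.000131). The groups did not overlap over the 12 libraries, from 104.3 to 119.6 and from 128 to 139.7 FPKM, and degron (−) was 1.28-fold higher at 0 Gy. EPHA2 held 93.8% of the EphA sum in degron (++) and 98.4% in degron (−) libraries (medians).

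Among the minor EphA receptors, EPHA1 and EPHA4 were higher in degron (++) cells. EPHA1 was at 5.40 and 5.65 FPKM against 0.756 and 1.001 FPKM, which was 6.29-fold higher (log2 fold change 1.80, SE 0.139, adjusted p 2.5e-06). EPHA4, a receptor that binds ephrins of both classes, was at 2.39 and 1.67 FPKM against 0.469 and 0.487 FPKM (log2 fold change 1.03, SE 0.115, adjusted p 3.11e-05). Both were separated between the populations in all conditions, and EPHA4 was below 1 FPKM in every degron (−) library. The other 6 EphA receptors (EPHA3, EPHA5, EPHA6, EPHA7, EPHA8 and EPHA10) were below 1 FPKM in all 12 libraries and were not tested. Their shares of the EphA sum did not all lie in 1 direction. EPHA7 and EPHA10 held medians of 0.225% and 0.342% in degron (−), against 0% and 0.103% in degron (++). EPHA5 held 0.096% in degron (++) against 0.0079% in degron (−).

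Ephrin-B ligands were exchanged between the populations. EFNB2, a ligand of EPHB4 known from the setting of arterial and venous identity, was at 13.4 and 13.8 FPKM in degron (++) and at 3.78 and 3.29 FPKM in degron (−) libraries at 0 Gy, 3.84-fold higher (log2 fold change 1.69, SE 0.0786, adjusted p 8.64e-08). EFNB1 went the other way, from 1.51 and 1.55 FPKM in degron (++) to 3.80 and 3.97 FPKM in degron (−), with a log2 fold change of −0.95 (SE 0.0904, adjusted p 1.03e-05). EFNB2 accordingly made up a median of 89.5% of the ephrin-B sum in degron (++) libraries, and EFNB1 50.6% and EFNB2 40.0% in degron (−) libraries.

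Among the EphB receptors the difference lay mainly in EPHB6, which lacks kinase activity. EPHB6 was at 7.26 and 7.95 FPKM in degron (++) and at 64.8 and 70.6 FPKM in degron (−) libraries, 8.91-fold higher in degron (−) (log2 fold change −3.0, SE 0.0617, adjusted p 6.5e-10). EPHB2 was also lower in degron (++), at 20.8 and 20.8 FPKM against 34.9 and 40.2 FPKM (log2 fold change −0.82, SE 0.0682, adjusted p 4.01e-06). EPHB3 was higher, at 5.68 and 5.65 FPKM against 1.17 and 1.17 FPKM (log2 fold change 1.62, SE 0.0708, adjusted p 5.87e-08). None of these 3 receptors overlapped between the populations in any condition.

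EPHB4 did not differ detectably at 0 Gy. It was at 32.3 and 34.6 FPKM in degron (++) and at 34.6 and 34.5 FPKM in degron (−) libraries, a log2 difference of −0.05 (95% interval −0.17 to 0.08, adjusted p 0.474). At 4 Gy and 30 h it was called higher by 0.21 (adjusted p 0.00648), but after rescaling each library to the same sum the value was −0.06 (adjusted p 0.331). At 4 Gy and 48 h the difference was 0.07 (95% interval −0.06 to 0.20, adjusted p 0.266). EPHB4 was the leading EphB receptor in degron (++) libraries at a median of 51.5% of the sum, and EPHB6 led in degron (−) libraries at 47.9%. The EphB sum itself ranged from 62.1 to 70.5 FPKM in degron (++) libraries and from 132 to 147 FPKM in degron (−) libraries.

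The secreted class 3 semaphorins differed in composition more than in amount. SEMA3B, described as a tumour suppressor in lung cancer, was at 13.6 and 13.0 FPKM in degron (++) and at 0.787 and 1.23 FPKM in degron (−) libraries at 0 Gy, 13.2-fold higher (log2 fold change 2.84, SE 0.112, adjusted p 3.12e-08). SEMA3A, the prototype repellent of this class, was at 8.22 and 8.21 FPKM against 1.54 and 1.38 FPKM, 5.63-fold higher (log2 fold change 1.91, SE 0.0921, adjusted p 1.08e-07). SEMA3D also was higher, by 0.95 on the log2 scale, and stayed below 1 FPKM in every degron (−) library.

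SEMA3C and SEMA3F took the opposite direction. SEMA3C was at 8.24 and 6.83 FPKM in degron (++) and at 24.1 and 25.5 FPKM in degron (−) libraries (log2 fold change −1.60, SE 0.0735, adjusted p 7.93e-08). SEMA3F, which acts mainly through NRP2, was at 2.42 and 1.99 FPKM against 15.0 and 12.2 FPKM, 6.18-fold higher in degron (−) (log2 fold change −2.19, SE 0.154, adjusted p 1.3e-06). In none of the 3 conditions did the populations overlap for any of these 5 ligands, as for 71.3% of all tested genes. SEMA3D met the filter in degron (++) only, so its separation is not independent of the filter. In degron (++) libraries the class was shared among SEMA3B (median 35.8% of the sum), SEMA3A (25.3%) and SEMA3C (24.0%). In degron (−) libraries SEMA3C held 62.2% and SEMA3F 29.3%. The class sum ranged from 28.6 to 35.6 FPKM in degron (++) libraries and from 40.1 to 42.4 FPKM in degron (−) libraries.

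Chromosomal neighbours among them did not all move together. SEMA3A and SEMA3D, with 0 protein-coding genes between them on chromosome 7, were both higher in degron (++), but SEMA3C, 4 genes from SEMA3A, was lower. SEMA3F and SEMA3B lie on chromosome 3 with 3 genes between them and had opposite directions. Gene order was read from RefSeq on GRCh38.p14, whereas the FPKM were made on hg19, and no coordinates were carried over.

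The neuropilins, which bind class 3 semaphorins with high affinity, were exchanged in part. NRP1 was at 16.3 and 15.3 FPKM in degron (++) and at 31.2 and 33.3 FPKM in degron (−) libraries at 0 Gy (log2 fold change −0.99, SE 0.0714, adjusted p 1.56e-06). NRP2 was at 7.60 and 7.43 FPKM against 3.18 and 2.21 FPKM (log2 fold change 1.22, SE 0.117, adjusted p 1.07e-05). NRP1 remained the more abundant in both populations, at a median of 72.5% of the neuropilin sum in degron (++) and 93.3% in degron (−). SEMA3F and its receptor NRP2 thus differed in opposite directions, as did SEMA3A and NRP1.

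The largest difference among the class 4 semaphorins was in SEMA4B, a membrane-bound ligand. SEMA4B was the most abundant of the 68 members in degron (−) cells, at 215 and 219 FPKM at 0 Gy, and was at 33.0 and 31.6 FPKM in degron (++), a 6.72-fold difference (log2 fold change −2.71, SE 0.0555, adjusted p 6.21e-10). SEMA4C was at 8.63 and 8.30 FPKM in degron (++) against 11.6 and 10.9 FPKM (log2 fold change −0.37, SE 0.0596, adjusted p 0.000354). SEMA4F was at 0.581 and 0.445 FPKM against 2.69 and 2.52 FPKM (log2 fold change −1.25, SE 0.0864, adjusted p 1.12e-06). All 3 were lower in every degron (++) library than in any degron (−) library.

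SEMA4A and SEMA4D were higher in degron (++) cells. SEMA4A was at 2.40 and 1.76 FPKM against 0.237 and 0.215 FPKM (log2 fold change 1.32, SE 0.104, adjusted p 2.83e-06), and SEMA4D, the ligand of PLXNB1, differed by 0.89 (SE 0.0744, adjusted p 4.01e-06). SEMA4G was called lower by 0.51 but was close to 1 FPKM, and after quantile normalization its difference was −0.12 (adjusted p 0.328). The class 4 sum ranged from 40.4 to 47.9 FPKM in degron (++) libraries and from 216 to 235 FPKM in degron (−) libraries, with SEMA4B at a median of 68.4% and 92.4%.

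The tested semaphorins of classes 5 to 7, SEMA5A, SEMA6B, SEMA6D and SEMA7A, were higher in degron (++) cells. SEMA5A and SEMA6D met the filter in degron (++) only, so they were tested through the population in which they were higher. SEMA5B, SEMA6A and SEMA6C were below 1 FPKM in all 12 libraries and were not tested. They held larger shares of their class sums in degron (−) (medians 20.3%, 3.14% and 10.3%, against 0%, 0.28% and 1.22%), but these sums were smaller there. The class 5 sum was 0.12 to 0.29 FPKM in degron (−) and 1.037 to 1.403 FPKM in degron (++). The class 6 sum was 3.444 to 4.913 FPKM and 9.235 to 12.854 FPKM. These shares are therefore of levels too low to be judged. SEMA7A, which is anchored by a lipid and also binds integrins, was at 20.3 and 20.9 FPKM against 8.82 and 7.26 FPKM at 0 Gy (log2 fold change 1.26, SE 0.0871, adjusted p 1.12e-06). SEMA6B was at 10.1 and 10.9 FPKM against 3.72 and 4.53 FPKM (log2 fold change 1.17, SE 0.103, adjusted p 6.1e-06). SEMA5A was at 1.40 and 1.33 FPKM against 0.191 and 0.155 FPKM (log2 fold change 1.01, SE 0.0966, adjusted p 1.02e-05). The groups of all 3 were separate, and SEMA5A remained a low gene in both. SEMA6D was at 1.54 and 1.71 FPKM in degron (++), was at 0.118 FPKM in 1 degron (−) library and was listed at 0 in the other, so no fold is given.

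The plexins, the signalling receptors of the semaphorins, differed by class. Of the A class, PLXNA1 was at 18.005 and 18.3 FPKM in degron (++) and at 36.0 and 36.2 FPKM in degron (−) libraries (log2 fold change −0.95, SE 0.0335, adjusted p 1.56e-08). PLXNA3 was at 6.93 and 7.35 FPKM against 10.99 and 11.5 FPKM (log2 fold change −0.59, SE 0.0772, adjusted p 8.91e-05). PLXND1, a receptor known from vessel patterning, was at 6.47 and 7.05 FPKM against 30.7 and 28.6 FPKM, 4.39-fold higher in degron (−) (log2 fold change −1.98, SE 0.0549, adjusted p 3.95e-09). These 3 receptors were lower in degron (++) in every condition without overlap, and PLXNA2, PLXNA4 and PLXNC1 were below 1 FPKM in all 12 libraries.

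The major B plexins were higher in degron (++) cells. PLXNB2 was at 72.3 and 70.9 FPKM in degron (++) against 45.6 and 42.4 FPKM (log2 fold change 0.69, SE 0.0407, adjusted p 3.97e-07). PLXNB1 was at 10.1 and 9.23 FPKM against 2.95 and 2.74 FPKM, 3.39-fold higher (log2 fold change 1.47, SE 0.0785, adjusted p 2.06e-07). PLXNB2 held a median of 87.4% of the plexin-B sum in degron (++) and 91.0% in degron (−), so the same receptor led in both. PLXNB3 was lower by 0.57 on the log2 scale and was below 1 FPKM in every degron (++) library.

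For the slits, ROBO1 was the only receptor at 1 FPKM or more in both populations. It was lower in degron (++) cells at 0 Gy, at 5.92 and 5.39 FPKM against 7.75 and 8.05 FPKM (log2 fold change −0.42, SE 0.0656, adjusted p 0.000294). ROBO3, a divergent ROBO protein, was at 0.194 and 0.132 FPKM against 1.17 and 1.53 FPKM (log2 fold change −1.01, SE 0.104, adjusted p 1.66e-05). Neither overlapped between the populations. ROBO2 and ROBO4 stayed below 0.05 FPKM in every library.

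Netrins also were exchanged. NTN4, a laminin-related netrin of basement membranes, was at 24.9 and 23.4 FPKM in degron (++) and at 3.99 and 3.48 FPKM in degron (−) libraries at 0 Gy, 6.48-fold higher (log2 fold change 2.41, SE 0.125, adjusted p 1.66e-07). NTN1, the classical attractant and a ligand of dependence receptors, was at 1.51 and 1.46 FPKM against 6.17 and 5.83 FPKM, 4.04-fold higher in degron (−) (log2 fold change −1.49, SE 0.0579, adjusted p 2.89e-08). NTN4 made up a median of 93.2% of the netrin sum in degron (++) libraries, and NTN1 56.9% and NTN4 35.3% in degron (−) libraries.

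Among the UNC5 receptors, which bind netrin-1, UNC5A alone was above the filter. It was at 9.57 and 10.3 FPKM in degron (++) and at 0.794 and 0.484 FPKM in degron (−) libraries at 0 Gy, 15.6-fold higher (log2 fold change 2.75, SE 0.114, adjusted p 4.36e-08). UNC5A was high in the population in which NTN1 was low. It held a median of 98.4% of the UNC5 sum in degron (++), while in degron (−) libraries UNC5C held 42.3% and UNC5A 34.2% of a sum of 1.56 to 2.31 FPKM. DCC, the other main netrin receptor, did not exceed 0.009 FPKM in any library.

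**Figure D3:**
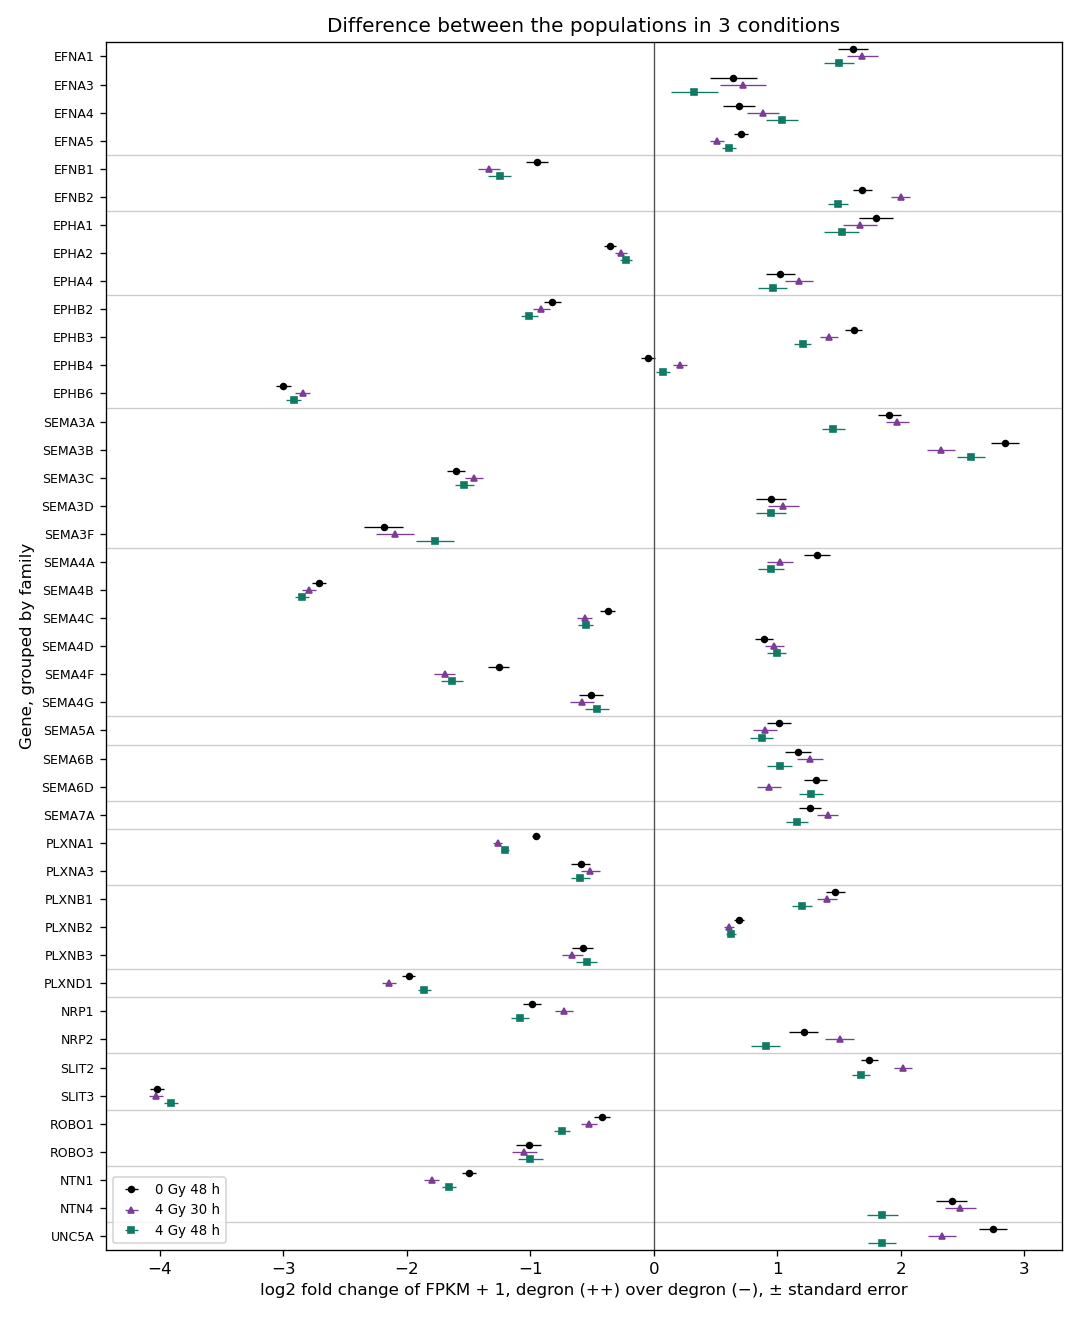
Log2 fold change on log2(FPKM + 1), degron (++) over degron (−), for each tested member (rows, by family) in the 3 conditions, with bars of ± 1 standard error. SLIT3 at −4.02, EPHB6 at −3.0 and SEMA4B at −2.71 lay farthest to the left at 0 Gy, and SEMA3B at 2.84, UNC5A at 2.75 and NTN4 at 2.41 farthest to the right.

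Ligand and receptor levels were then set side by side in 56 pairs known from textbook biology, listed with earlier results of these data known. The list is not complete, and EPHB6, NTN4 and NEO1 are in none of its pairs. No share over other pairs of genes was computed, so the counts below are a description. A pair was counted as complete in a population when both genes were at 1 FPKM or more in all 6 of its libraries. Of the 56 pairs, 21 were complete in both populations, 12 in degron (++) only, 2 in degron (−) only and 21 in neither. Pairs share members, so these are not independent counts, and an RNA level says nothing of binding.

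The 12 pairs complete only in degron (++) cells turned on a few genes. EPHA4 gave 4 of them, with EFNA1, EFNA4, EFNA5 and EFNB2, and EPHA1 with EFNA1 gave another. SEMA3B with NRP1 and with NRP2, SEMA3D with NRP1, SEMA4A with PLXNB1 and with PLXND1, SLIT2 with ROBO1, and NTN1 with UNC5A made up the rest. Only in degron (−) cells were SLIT3 with ROBO1 and SEMA4G with PLXNB2 complete. ROBO1 was therefore paired with a slit in both populations, with SLIT2 in degron (++) and with SLIT3 in degron (−). Several other pairs turned on levels near the cut of 1 FPKM. In degron (−) at 4 Gy and 48 h the means were 1.19 FPKM for SEMA3B, 1.03 FPKM for EPHA1 and 1.01 FPKM for UNC5A. SEMA4G had a mean of 1.14 FPKM in degron (−) and 0.4995 FPKM in degron (++) at 0 Gy. A pair that was not complete is therefore not shown to be absent.

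In 36 pairs both partners were called at 0 Gy. Both were higher in degron (++) in 10, among them EFNB2 with EPHB3 (log2 fold changes 1.69 and 1.62), SEMA4D with PLXNB1 (0.89 and 1.47) and SEMA3B with NRP2 (2.84 and 1.22). Both were lower in 5, among them SEMA3C with PLXND1 (−1.60 and −1.98) and EFNB1 with EPHB2 (−0.95 and −0.82). Ligand and receptor differed in opposite directions in the remaining 21, with the ligand higher and the receptor lower in 14 and the reverse in 7. SEMA4B and its receptor PLXNB2 (−2.71 and 0.69) and NTN1 with UNC5A (−1.49 and 2.75) were of the last kind. SEMA7A was at 7.26 FPKM or more in all 12 libraries while its plexin partner PLXNC1 did not exceed 0.736 FPKM, and PLXNA4, a partner of SEMA6B, did not exceed 0.006 FPKM.

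Other genes of the pathway, coreceptors and intracellular effectors, numbered 69 in the list used, of which 67 were in the files and 55 passed the filter. At 0 Gy, 20 were higher in degron (++), 28 were lower and 7 were not called (87.3% called, background 77.7%, with 37.6% higher and 40.2% lower), with a median log2 fold change of −0.15. At 4 Gy and 30 h, 19 were higher and 27 lower (83.6% called, background 79.1%, with 38.3% higher and 40.8% lower). At 4 Gy and 48 h, 19 were higher and 29 lower (87.3% called, background 76.7%, with 37.1% higher and 39.6% lower).

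No share over all tested genes was computed at the size of 1.5 used for naming these genes. A call of at least 1 in size at 0 Gy was made for 18 of the 55 (32.7%), against 24.2% of all tested genes. One of at least 2 was made for 7 (12.7%), against 7.05%. A log2 fold change of at least 1.5 in size was reached by 4 called genes that were higher, among them a receptor and a ligand of the repulsive guidance family. NEO1 (neogenin), which binds netrins and RGM proteins, had a mean of 6.07 FPKM ± 0.23 (SD, n = 2) in degron (++) and 0.762 FPKM ± 0.18 in degron (−) cells (log2 fold change 2.01, limma adjusted p 6.31e-08). Its ligand RGMA was at 5.20 FPKM ± 0.098 and 0.471 FPKM ± 0.054 (2.07, limma adjusted p 2.61e-08), whereas the related RGMB was lower in degron (++) (−0.54). FYN, a kinase downstream of several guidance receptors (1.82), and RHOD (1.70) were also higher. NEO1 ran from 5.26 to 6.23 FPKM in degron (++) and from 0.636 to 1.02 FPKM in degron (−) libraries over all conditions, without overlap.

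The other 7 genes past this size were lower in degron (++) cells. PAK1, a kinase activated by RAC1 and CDC42, had a mean of 0.596 FPKM ± 0.16 (SD, n = 2) in degron (++) and 27.6 FPKM ± 1.4 in degron (−) cells (log2 fold change −4.17, limma adjusted p 2.15e-09). PAK4 (−2.20), PTK7 (−2.49), the collapsin response gene DPYSL4 (−2.11), the adhesion molecule L1CAM (−1.80), and MICAL1 (−2.41) and MICAL2 (−1.84), oxidoreductases that act on actin below plexins, were lower too. For PAK1 the ranges over all 6 libraries of each population were 0.339 to 0.707 and 26.6 to 32.7 FPKM. For PAK4 they were 28.7 to 33.1 and 133 to 144 FPKM. Neither overlapped, nor did 45 of the 55 tested genes of this list (81.8%) or 71.3% of all tested genes. PAK1 was below 1 FPKM in every degron (++) library, so it passed the filter through degron (−) only. Its call and its separation are not independent of the filter.

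Dose and time moved few members, and by much less than the population did. The effect of 4 Gy was compared at 48 h, and the effect of time, 48 h against 30 h, at 4 Gy. Both use the same libraries at 4 Gy and 48 h, so they are not independent. No member reached a log2 change of 1 in size in any of these comparisons.

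In degron (++) cells 2 of the 43 tested members fell at 4 Gy and 0 rose (background 1.82% of all tested genes called, 1.42% higher and 0.402% lower). UNC5A was at 9.57 and 10.3 FPKM at 0 Gy and at 6.12 and 6.27 FPKM at 4 Gy, a log2 change of −0.60 (SE 0.114, adjusted p 0.042). ROBO1 was at 5.92 and 5.39 FPKM at 0 Gy and at 4.23 and 4.27 FPKM at 4 Gy, a change of −0.34 (SE 0.0656, adjusted p 0.0443). The irradiated libraries lay below the others in both genes. At 4 Gy and 30 h UNC5A was at 6.37 and 6.25 FPKM. The count was 1 with a pseudocount of 0.1 or without trend, and 0 without a filter, after quantile normalization, with either rescaling, with a replicate block or with only the libraries compared. Neither call held when any 1 of the 4 libraries was left out, with UNC5A between −0.65 and −0.55 (adjusted p 0.144 to 0.163) and ROBO1 between −0.40 and −0.28 (adjusted p 0.0872 to 0.235).

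Of the time comparison in degron (++) cells only SEMA3B was called, and it rose (background 1.21%, 0.657% higher and 0.548% lower). It was at 7.95 and 7.12 FPKM at 30 h and at 11.1 and 13.0 FPKM at 48 h, a log2 change of 0.61 (SE 0.112, adjusted p 0.0429). Both libraries at 48 h were above both at 30 h, and the unirradiated libraries at 48 h were at 13.6 and 13.0 FPKM. The call was lost under every alternative run other than a filter at 5 FPKM (0.58 to 0.67, adjusted p 0.0555 to 0.293). The change was 0.51 to 0.71 with 1 library left out at a time and was not called in any of these fits (adjusted p 0.0849 to 0.213).

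In degron (−) cells 5 members rose and 1 fell at 4 Gy (background 4.73%, 3.85% higher and 0.873% lower). This count of 6 was 3 without a filter and 0 with only the libraries compared. EPHB3 was at 1.17 and 1.17 FPKM at 0 Gy and at 2.0 and 2.099 FPKM at 4 Gy, a change of 0.49 (SE 0.0708, adjusted p 0.00788), and was called in 2 of the 4 fits with 1 library left out (0.47 to 0.51, adjusted p 0.0291 to 0.0642). NTN4 was at 3.99 and 3.48 FPKM and then at 5.84 and 6.63 FPKM (0.61, adjusted p 0.0304). PLXNA1 was at 36.0 and 36.2 FPKM and then at 41.6 and 41.7 FPKM (0.20, adjusted p 0.0143). In all 3 the irradiated libraries were the higher ones. SEMA3A was at 1.54 and 1.38 FPKM and then at 2.51 and 2.01 FPKM (0.40, adjusted p 0.0458), and SEMA7A at 8.82 and 7.26 FPKM and then at 10.6 and 10.999 FPKM (0.39, adjusted p 0.0427). PLXND1 fell from 30.7 and 28.6 FPKM to 24.5 and 23.9 FPKM (−0.28, adjusted p 0.0249). The groups of these 3 did not overlap either. With 1 library left out at a time, SEMA7A was called in 1 of 4 fits (adjusted p 0.0244 to 0.2), and NTN4 (0.0672 to 0.177), PLXNA1 (0.0582 to 0.093), SEMA3A (0.0608 to 0.188) and PLXND1 (0.0572 to 0.15) in 0 of 4.

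From 30 h to 48 h at 4 Gy, 4 members rose and 1 fell in degron (−) cells (background 7.18%, 6.01% higher and 1.17% lower). This count of 5 was 11 with a pseudocount of 0.1, 9 without trend, 3 with a replicate block and 0 with only the libraries compared. NTN4 was at 2.59 and 3.81 FPKM at 30 h and at 5.84 and 6.63 FPKM at 48 h, a change of 0.80 (SE 0.125, adjusted p 0.00708). SEMA3A was at 1.25 and 1.10 FPKM and then at 2.51 and 2.01 FPKM (0.58, SE 0.0921, adjusted p 0.00732). These were the firmest of the time calls, each kept in 3 of 4 fits with 1 library left out (NTN4 0.59 to 1.01, adjusted p 0.00293 to 0.0699, and SEMA3A 0.47 to 0.69, adjusted p 0.0133 to 0.0512). EFNB2 was at 2.66 and 3.07 FPKM and then at 3.70 and 4.25 FPKM (0.37, adjusted p 0.0284), and was called in 2 of 4 such fits (adjusted p 0.0316 to 0.192). UNC5A was at 0.448 and 0.448 FPKM and then at 0.806 and 1.22 FPKM (0.47, adjusted p 0.0446), and was called in 1 of 4 (adjusted p 0.0251 to 0.255). The groups did not overlap in any of these, but UNC5A was near the floor of 1 FPKM set by the filter. PLXND1 fell from 28.9 and 28.4 FPKM to 24.5 and 23.9 FPKM (−0.23, adjusted p 0.0382), and was called in 0 of 4 (adjusted p 0.0963 to 0.213).

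Most of the called changes in degron (−) cells went in the direction of the degron (++) level. With that direction read from the condition outside each comparison, 5 of the 6 members called for dose moved toward degron (++), all but PLXNA1, as did 504 of the 612 genes called for dose in all (82.4%). For time it was 5 of 5 members and 906 of 930 genes (97.4%), so the called members moved as the called genes in general did. Over all tested genes the shares were lower, 67.4% of the 43 members and 61.9% of the 12946 genes for dose, and 74.4% and 72.6% for time. CDKN2A, CDKN2B and MTAP are neighbours on chromosome 9, listed because they were high in degron (++) in earlier results of these data. Their summed FPKM was 129 to 144 in degron (++) libraries. In degron (−) libraries it was 20.4 to 24.5 at 0 Gy. At 4 Gy it was 15.4 to 16.1 there at 30 h and 26.8 to 28.3 at 48 h. Each of these genes was called higher for time in degron (−) (log2 changes 0.73, 0.80 and 0.55), and none was called for dose. Markers of cell state were also called in degron (−) cells. CDH1, CDH2 and EPCAM rose for dose (log2 changes 0.56, 0.47 and 0.37) and for time (0.79, 0.76 and 0.64), MAP2 fell for dose (−0.38), and FN1 and LUM rose for time (0.59 and 0.76). In degron (++) cells LUM rose (0.62) and VIM fell (−0.39) from 30 h to 48 h. The part of these markers in the changes of the members was not tested.

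**Figure D4:**
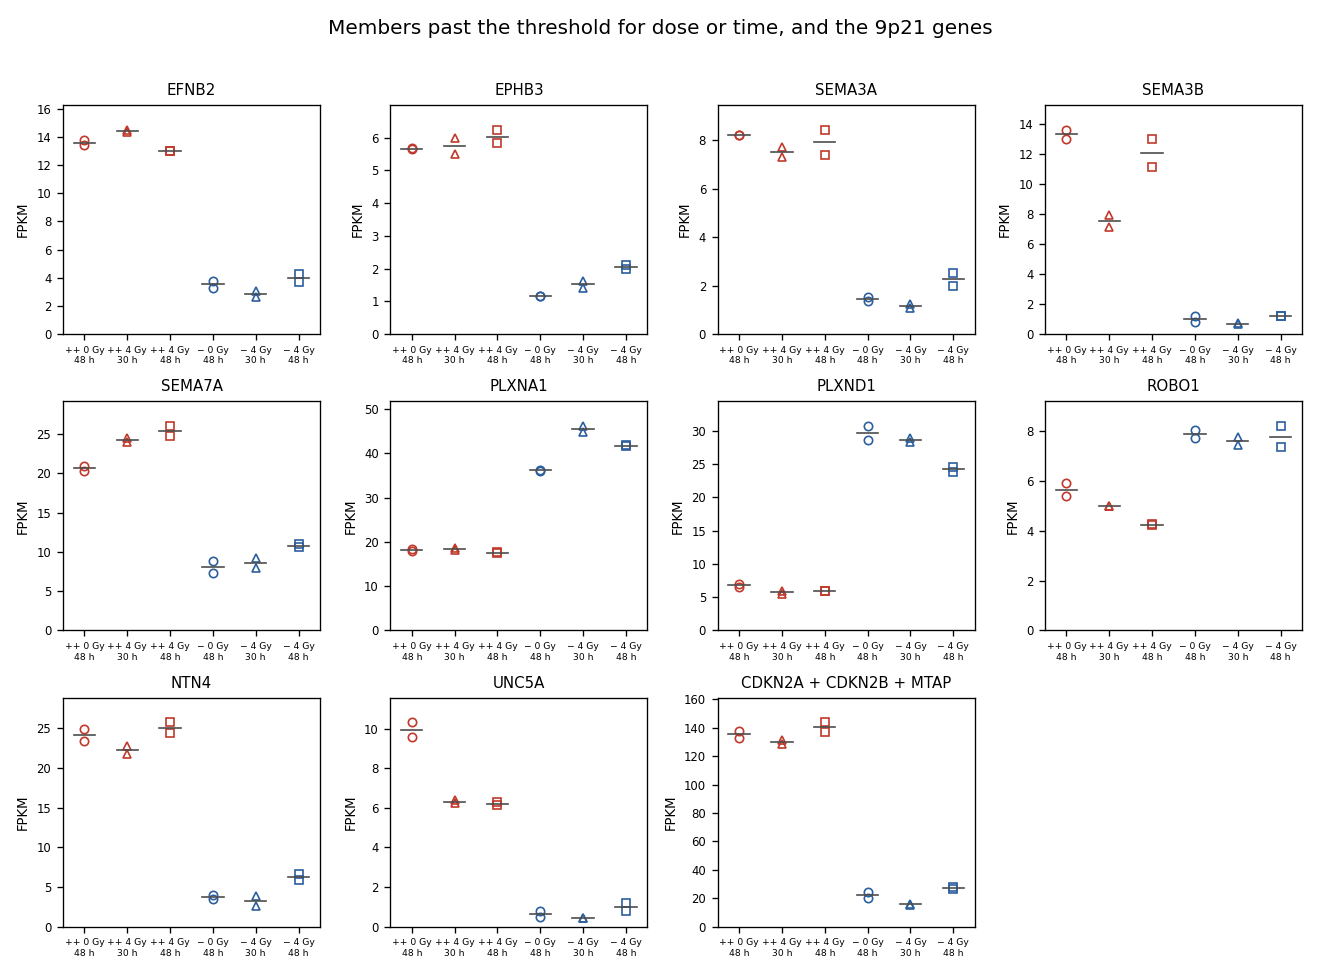
FPKM (y axis from 0) of the 10 members called for dose or time, and the sum of CDKN2A, CDKN2B and MTAP, by population and condition (x axis), with 1 point a library and lines at the mean of 2. In degron (−) libraries at 4 Gy, NTN4 was at 2.59 and 3.81 FPKM at 30 h and at 5.84 and 6.63 FPKM at 48 h. In degron (++) libraries UNC5A was at 9.57 and 10.3 FPKM at 0 Gy and between 6.12 and 6.37 FPKM at 4 Gy.

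Whether dose or time acted differently in the populations was tested as a difference of differences. For dose, 0 members were called by limma (background 0.0772%), and 10 had an unadjusted p under 0.05. The 3 with the smallest p were UNC5A, with a difference of −0.90 between the 2 effects (SE 0.162, adjusted p 0.09), PLXNA1 (−0.25, SE 0.0473, adjusted p 0.102) and EPHB3 (−0.41, SE 0.1, adjusted p 0.148). UNC5A was lower after 4 Gy in degron (++) libraries, by 0.60, whereas in degron (−) its change was 0.29 and was not called (adjusted p 0.19).

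For time, EFNB2 was the only member called (2.33% of the tested members, background 3.23%). Its change from 30 h to 48 h was −0.14 in degron (++), where it was not called (adjusted p 0.433), and 0.37 in degron (−), a difference of −0.51 (SE 0.111, adjusted p 0.0485). In degron (++) libraries it was at 14.4 and 14.5 FPKM at 30 h and at 13.0 and 13.0 FPKM at 48 h. The call held in 1 of the 8 fits with 1 library left out (−0.59 to −0.43, adjusted p 0.0426 to 0.16). NTN4, SEMA3A and PLXND1, called for time in degron (−), had differences of −0.63, −0.52 and 0.29 that did not pass (adjusted p 0.103, 0.0736 and 0.094). Of all tested genes 418 were called for this difference, 352 with a negative value, as for EFNB2, and 66 with a positive one. Among the markers CDH2 (−0.79), CDH1 (−0.76), EPCAM (−0.69), CDKN2A (−0.64) and MTAP (−0.62) were called, and no others. Whether EFNB2 followed these genes was not tested.

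Of the 55 tested effector genes, 2 were called for dose in degron (++) (3.64%, background 1.82%) and 4 in degron (−) (7.27%, background 4.73%), and 1 (1.82%, background 1.21%) and 6 (10.9%, background 7.18%) for time. ABL2, a kinase in the semaphorin and slit pathways, rose at 4 Gy by 0.47 in degron (++) (adjusted p 0.0261) and by 0.55 in degron (−) cells (adjusted p 0.00613). With 1 library left out, ABL2 was called in 0 of 4 fits in degron (++) (adjusted p 0.0807 to 0.153) and in 3 of 4 in degron (−) (0.0197 to 0.0506). MET, a kinase that associates with B plexins, and RND3 rose in degron (−) for dose (0.19 and 0.35) and for time (0.18 and 0.27). MET was called in 1 of 4 such fits for dose and 0 of 4 for time, and RND3 in 3 of 4 and 2 of 4.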

How the data were processed

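Total RNA of 12 PANC-1 libraries, 2 in each of 6 groups, was sequenced by the study with a stranded mRNA kit. FPKM values, computed by the authors, were deposited as 1 table a library. The submitters' processing notes name TopHat2 2.1.1, Bowtie2 2.2.8, SAMtools 0.1.18, Cuffdiff 2.2.1 and hg19, and the annotation and whether strand was used in counting are not given in the sources used here. Reads of overlapping or antisense genes may therefore be shared. The FPKM sum ranged from 829654 to 916877 in degron (++) libraries and from 707273 to 763064 in degron (−) libraries, of which MIR622 held 28.6% to 30.0% and 22.5% to 27.1%.

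From the FPKM, log2(FPKM + 1) was computed for the 12946 genes with at least 1 FPKM in at least 2 libraries. The means of the 6 groups were fitted with limma 3.58.1 in R 4.3.3 (eBayes with trend), and p-values were adjusted by Benjamini-Hochberg over these genes. All tests are two-sided, and intervals are 95% intervals of the fit. The fit was tested on simulated data.

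The members, the gene lists and the ligand and receptor pairs were chosen with earlier results of these data known. Tested members were given library by library where the mean was at least 10 FPKM in either population or the called log2 fold change at least 1 in size at 0 Gy, or where called for dose, time or their difference between populations. Where none was called, the 3 with the smallest p are given. Other pathway genes are named from a log2 fold change of 1.5 in size, and those named for dose or time, and any gene outside this rule, were chosen after their values were seen. Promoter windows were found for 58 of the 68 members. Alternatives were another pseudocount, other filters, quantile normalization, rescaling to a sum of 1000000 with and without MIR622, no trend, a replicate block, only the libraries compared, and each library left out in turn.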

Additional observations from a re-analysis of the deposited data

Results flagged for a closer look

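EFNB2 was flagged because its change from 30 h to 48 h at 4 Gy differed between the populations by the test of the difference itself, at −0.51 on the log2(FPKM + 1) scale (degron (++) change minus degron (−) change, SE 0.111, limma adjusted p 0.0485). Both libraries of degron (++) at 48 h were below those at 30 h, and both of degron (−) were above. The same test called 418 of all tested genes (3.23%), 352 of them in the direction of EFNB2 and 66 in the other. CDH1, CDH2, EPCAM, CDKN2A and MTAP were among the 352.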

How the results depend on the processing

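The counts of members called between the populations stayed within 1.5 times of those reported under every alternative run. When 1 library was left out, 41 to 42 were called at 0 Gy, 43 at 4 Gy and 30 h, and 41 to 42 at 4 Gy and 48 h. Of 1802 values for named members under alternatives, 1688 kept their direction and side of the threshold, 113 were no longer called and 1 was reversed, EPHB4 at 4 Gy and 30 h after rescaling to a sum of 1000000 (−0.06). Restricting to genes that met the filter in both populations, added after seeing the data, left 17 of 26 members with a log2 fold change of at least 1 in size and 5 of 7 with at least 2. The rescaling moved the median of all genes at 0 Gy from −0.02 to −0.21, or to −0.14 without MIR622.

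The dose and time counts depended on the settings, and the cause was not tested. For dose in degron (++) cells, 2 members became 1 with a pseudocount of 0.1 or without trend, and 0 without a filter, after quantile normalization, with either rescaling, with only the libraries compared and with any 1 library left out (0 to 0). In degron (−) cells, 6 became 3 without a filter, 0 with only the libraries compared and 0 to 2 with 1 library left out. For time in degron (++) cells, 1 became 0 under each of these alternatives other than the filter at 5 FPKM, and 0 to 0 with 1 library left out. In degron (−) cells, 5 became 11 with a pseudocount of 0.1, 9 without trend, 0 with only the libraries compared and 1 to 4 with 1 library left out. The difference of the time effect, called for 1 member, was called for 2 with a pseudocount of 0.1, for 0 without a filter, after quantile normalization, with the rescaling that kept MIR622, without trend and with only the libraries compared, and for 0 to 1 with 1 library left out. EFNB2 itself ranged from −0.61 to −0.48 (limma adjusted p 0.0323 to 0.0817) over the 9 alternatives other than leaving out a library. The difference of the dose effect was called for 0 members throughout.

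Replicate numbers did not pair the samples: same-numbered libraries had correlations of −0.038 to 0.122 in 15 pairs of groups, with 2 over 0.1. With the replicate block, 42, 43 and 41 members were called between the populations, 0 and 5 for dose in degron (++) and degron (−), 0 and 3 for time, and 0 for each difference of effects.

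With 2 libraries a group and no counts, changes under about the spread between libraries, and all members below 1 FPKM, could not be judged.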
